A study of Mus musculus with 12 samples.

Results

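The genes examined were the 10 that encode the mTOR complexes, the TSC complex, the GTPase Rheb and the translation repressor 4E-BP1, namely Mtor, Rptor, Rictor, Mlst8, Akt1s1, Deptor, Tsc1, Tsc2, Rheb and Eif4ebp1. They were picked out by symbol, from a list drawn up with earlier results of these data known but using no measured value as a criterion, and all 10 were found among 22180 genes with a probe set of a single symbol. The arrays came from mouse acute myeloid leukemia driven by the MLL-AF9 fusion oncogene, in 4 groups of 3. Knockout L-GMP and wild-type L-GMP were leukemic granulocyte-macrophage progenitors sorted as GFP+, lineage-negative, c-Kit+, CD16/32+ and CD34+, while knockout and wild-type whole leukemia were all GFP+ cells. Knockout cells carried AMPKΔ/Δ and wild-type cells AMPKfl/fl, so the controls have floxed, undeleted alleles of the energy-sensing kinase AMPK. All were on C57BL/6J and were taken from the bone marrow of recipients irradiated with 10 Gy and injected with 50000 MLL-AF9 expressing progenitor and stem cells. The marrow was taken when each recipient developed leukemia, and 5000 cells were sorted for each sample. The labels name neither the age of the mice, nor the recombinase used, nor the AMPK subunit deleted. Nor do the labels say that replicates come from separate recipients, so a p-value here reflects differences among the deposited samples, which may be technical in part.

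mTOR is a kinase that joins nutrient, growth factor and energy signals to protein synthesis and cell growth. It works in mTORC1, which contains Raptor (Rptor) and PRAS40 (Akt1s1), and in mTORC2, which contains Rictor, with mLST8 (Mlst8) in both and DEPTOR as an inhibitor of both. The TSC1 and TSC2 proteins switch off Rheb, which activates mTORC1, and mTORC1 in turn phosphorylates and releases the repressor 4E-BP1 (Eif4ebp1) from the cap-binding factor eIF4E. AMPK is known to phosphorylate TSC2 and Raptor and thereby to restrain mTORC1. The arrays measured RNA, and neither phosphorylation nor complex activity.

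RefSeq promoter windows of assembly GRCm38.p6 were available for 8 of the 10 genes, all but Deptor and Eif4ebp1. The 250 bases upstream of the annotated start are shown for Mtor, Rptor and Tsc2, because Mtor and Rptor had the lowest p-values between the knockout populations and Tsc2 varied most closely with Mtor within groups. Capitals mark the letters of 5 motifs searched on both strands. They were the E-box CACGTG, the CCAAT box (ATTGG on the opposite strand), the ETS letters CCGGAAG, the NRF1 motif and the TATA letters TATAAA, and no matches of different motifs overlapped in the windows shown.
Mtor, chr4:148448332-148448581, plus strand: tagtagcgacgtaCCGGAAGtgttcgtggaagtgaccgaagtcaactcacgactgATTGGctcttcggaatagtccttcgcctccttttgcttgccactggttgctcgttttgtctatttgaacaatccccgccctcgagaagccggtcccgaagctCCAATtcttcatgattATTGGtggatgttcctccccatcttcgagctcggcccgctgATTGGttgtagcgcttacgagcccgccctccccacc
Rptor, chr11:119602655-119602904, plus strand: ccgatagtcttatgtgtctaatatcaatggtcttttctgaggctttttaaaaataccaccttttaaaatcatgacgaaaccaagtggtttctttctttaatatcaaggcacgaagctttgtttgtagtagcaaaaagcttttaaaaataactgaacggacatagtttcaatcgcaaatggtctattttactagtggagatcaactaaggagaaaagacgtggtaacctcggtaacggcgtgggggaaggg
Tsc2, chr17:24632628-24632877, minus strand: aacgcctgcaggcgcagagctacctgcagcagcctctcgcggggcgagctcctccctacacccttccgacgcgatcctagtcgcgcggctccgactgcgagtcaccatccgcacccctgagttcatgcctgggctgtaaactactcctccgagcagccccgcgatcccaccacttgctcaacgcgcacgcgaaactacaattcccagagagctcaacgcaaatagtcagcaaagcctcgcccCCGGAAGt
The Mtor window held 4 CCAAT matches and 1 ETS match, the Tsc2 window 1 ETS match, and the Rptor window none of the 5. CCAAT occurred in 33.8% of the 32851 windows of this length in the table, the ETS letters in 6.91%, the E-box in 6.02%, the TATA letters in 12.4% and the NRF1 motif in 0.782%. Of the other 5 genes with a window, Rictor held 1 CCAAT, Akt1s1 held 1 ETS match, Rheb held 1 E-box, and Mlst8 and Tsc1 held none. GC content was 54.4% for Mtor, 37.6% for Rptor and 62.8% for Tsc2, against a median of 52.4% over the table. A match is a run of letters and not a known binding site.

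All values below are log2 intensity of 1 probe set per gene, and differences are between group means with limma's standard error. Calling required a Benjamini-Hochberg adjusted p below 0.05 over all 17749 genes tested, and all 10 members passed the filter on dim genes. Their means lay between 6.1 for Akt1s1 and 7.92 for Eif4ebp1, the 65.5th to 90.8th percentiles of genes, where the brightness of a probe set is no measure of a gene's level against another's. Arrays correlated with each other at 0.865 to 0.983 over the tested genes. Knockout whole leukemia array 2 lay far from the rest, with a first principal component score of 67.4 (32.4% of the variance), and the remaining 11 arrays lay between -24.2 and 18.5. Its mean over the 7 measured of 11 erythroid marker genes was 9.52, against 5.67 and 6.35 in the other knockout whole leukemia arrays and 5.43 to 5.56 in wild-type whole leukemia. The part of that array in the results below was not tested. Of the sorting gate genes, Cd34 was higher in L-GMP than in whole leukemia of the same genotype, with 9.67 ± 0.22 in knockout L-GMP, against 9.76 ± 0.25 in wild-type L-GMP, against 6.41 ± 0.78 in knockout and 8.74 ± 0.56 in wild-type whole leukemia (SD, n = 3). Kit had 8.64 ± 0.90 in knockout L-GMP, against 7.56 ± 0.55 in wild-type L-GMP, with 7.5 ± 0.58 in knockout and 7.0 ± 0.52 in wild-type whole leukemia. The CD16/32 genes Fcgr3 and Fcgr2b differed between L-GMP and whole leukemia by 0.08 and 0.46 in the knockout and by -0.32 and -0.05 in the wild type, and none of the 4 gate genes was called in either genotype. Prkaa1, the AMPK alpha 1 subunit gene, checked the genotype labels, at 6.83 to 7.31 in knockout against 7.99 to 8.33 in wild-type L-GMP, and at 6.95 to 7.45 in knockout against 7.72 to 8.69 in wild-type whole leukemia. The genotypes did not overlap in either population, and neither difference was called (adjusted p = 0.622 and 0.592 by limma).

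**Figure D1:**
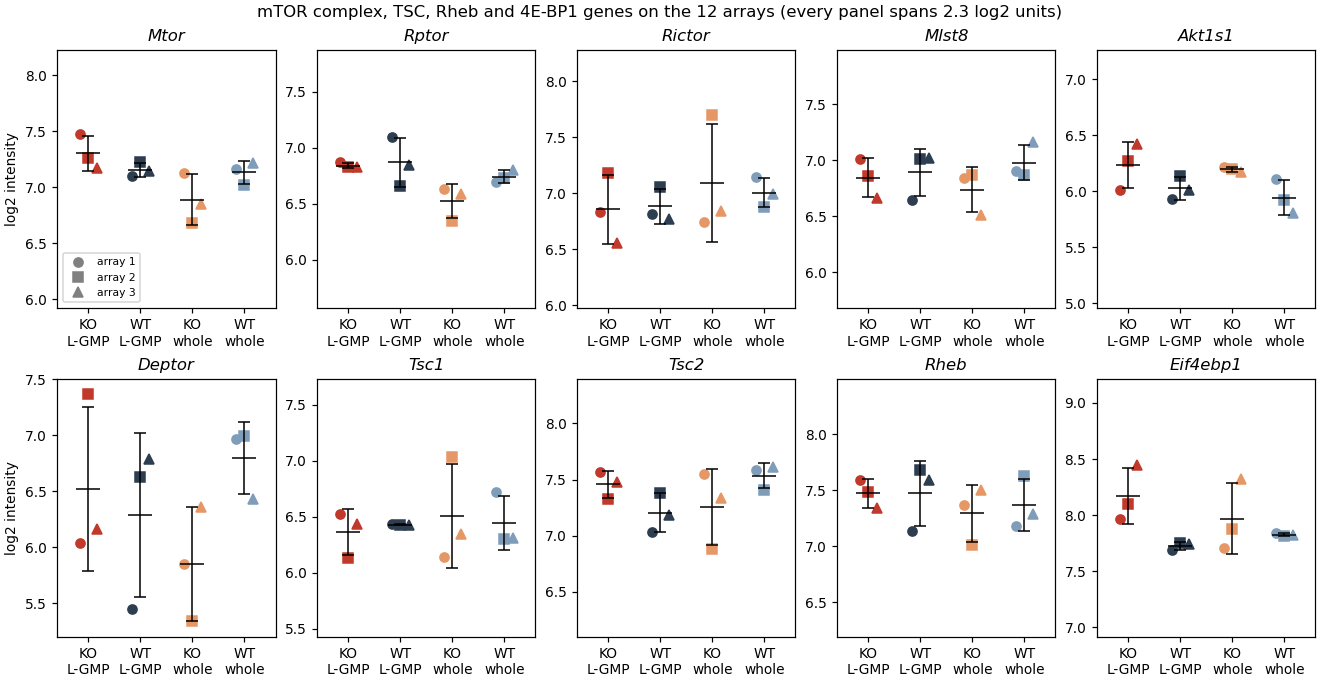
Log2 intensity (y axis) of the 10 genes in knockout (KO) L-GMP, wild-type (WT) L-GMP, KO whole leukemia and WT whole leukemia, with 1 symbol per array and bars for the mean ± SD (n = 3). Deptor varies most within groups, Eif4ebp1 is tight in both wild-type groups, and KO whole leukemia array 2 (square) is the highest array for Rictor and Tsc1 and the lowest for Mtor, Rptor, Tsc2, Rheb and Deptor.

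Setting knockout beside wild-type cells asks whether loss of AMPK alters the RNA of the pathway it restrains. In L-GMP the levels of the 10 genes differed between genotypes by -0.06 to 0.45, and 0 of 10 were called (limma, adjusted p = 0.9998 for each, 0.00563% of all genes called). Only Eif4ebp1 had an unadjusted p under 0.05, 1 of 10 members beside 4.13% of all genes. Its arrays alone did not overlap between genotypes, 1 of 10 beside 9.48% of all genes. In whole leukemia the differences ran from -0.95 to 0.25 and again 0 of 10 were called (adjusted p = 0.829 to 0.974, 0% of all genes called). Here 0 of 10 members had an unadjusted p under 0.05, beside 5.97% of all genes, and 4 of 10 did not overlap between genotypes, beside 11.2% of all genes. The median difference of the members was 0.07 in L-GMP, against 0.02 over all genes, and -0.15 in whole leukemia, against 0.00 (-0.0016) over all genes. For 1 gene and 3 arrays a group, the smallest p that exact two-sided permutation could give is 0.1.

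The catalytic subunit gene Mtor had 7.47, 7.26 and 7.17 in knockout L-GMP, against 7.1, 7.22 and 7.14 in wild-type L-GMP. The genotypes overlapped there, since knockout array 3 lay below wild-type array 2. The difference was 0.15 (SE 0.13, 95% interval -0.13 to 0.43), which leaves room for folds of 0.913 to 1.34, and it was 0.06 without knockout L-GMP array 1. In knockout whole leukemia Mtor had 7.13, 6.68 and 6.85, against 7.16, 7.02 and 7.22 in wild-type whole leukemia. Knockout arrays 2 and 3 were below every wild-type array and array 1 was not, and the difference was -0.25 (SE 0.13, adjusted p = 0.829 by limma). Without knockout whole leukemia array 2 it was -0.14. Mlst8, whose WD-repeat protein binds the mTOR kinase domain, had 7.02, 6.86 and 6.66 in knockout L-GMP, against 6.65, 7.01 and 7.02 in wild-type L-GMP, overlapping ranges. In whole leukemia it had 6.84, 6.87 and 6.51 in the knockout, against 6.91, 6.87 and 7.16 in the wild type. These arrays did not overlap, but knockout array 2 and wild-type array 2 round to the same value, and the difference of -0.24 (SE 0.15) was not called. It was -0.30 without knockout array 2, -0.12 without knockout array 3, -0.15 without wild-type array 3 and -0.35 with array weights.

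Rptor, which encodes the mTORC1 scaffold that recruits substrates, had 6.87, 6.83 and 6.83 in knockout L-GMP, against 7.1, 6.66 and 6.85 in wild-type L-GMP. The knockout arrays lay inside the wild-type range, at a difference of -0.03 (SE 0.12, 95% interval -0.29 to 0.23, folds of 0.818 to 1.18). In whole leukemia it had 6.63, 6.35 and 6.59 in the knockout and 6.69, 6.74 and 6.8 in the wild type. Every knockout array was below every wild-type array, and the difference of -0.22 (SE 0.12, adjusted p = 0.834 by limma) was -0.13 without knockout array 2. Akt1s1, encoding the mTORC1 inhibitor PRAS40, had 6.01, 6.27 and 6.42 in knockout L-GMP, against 5.93, 6.14 and 6.01 in wild-type L-GMP, which overlapped. In whole leukemia it had 6.22, 6.2 and 6.17 in the knockout, all above the 6.11, 5.92 and 5.8 of the wild type. The differences were 0.21 in L-GMP and 0.25 in whole leukemia (SE 0.12 each, 95% interval -0.01 to 0.52 in whole leukemia), and neither was called. The L-GMP difference was 0.12 without knockout L-GMP array 3, 0.32 without array 1 and 0.09 with array weights. A further probe set that names Akt1s1 together with the microRNA gene Mir707 was not used, and over the 12 arrays it followed the one used at r = 0.47.

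Deptor, the inhibitor subunit gene, had the widest spread of the 10. It had 6.04, 7.37 and 6.17 in knockout L-GMP, against 5.45, 6.63 and 6.79 in wild-type L-GMP. Each L-GMP group thus held 1 array that differed from its others by more than 1 log2 unit, and the difference of 0.23 had a 95% interval of -0.73 to 1.2. With array weights it was -0.30, and it was -0.19 without knockout L-GMP array 2 as well as without wild-type L-GMP array 1. Knockout L-GMP array 2, with the highest Deptor, also had the highest mean of 8 of 10 eosinophil, basophil and mast cell genes, 7.72, where the groups ranged over 5.59 to 7.72 in knockout and 5.58 to 5.85 in wild-type L-GMP. Over the 12 arrays Deptor correlated with that mean at 0.25, and at 0.52 without knockout whole leukemia array 2. The part of those cells in the Deptor value was not tested. Knockout L-GMP array 2 also had the lowest second principal component score, -41.3, where the others lay between -19.6 and 21.8. In whole leukemia Deptor had 5.85, 5.34 and 6.36 in the knockout, against 6.97, 7.0 and 6.43 in the wild type. The arrays did not overlap, although knockout array 3 came within 0.1 of wild-type array 3. The difference of -0.95 (SE 0.43, 0.518-fold, 95% interval -1.91 to 0.01) had an adjusted p of 0.829 by limma, and was -0.69 without knockout array 2. Another Deptor probe set measured 5.93 ± 0.20 in knockout and 6.33 ± 0.13 in wild-type whole leukemia (SD, n = 3), and its correlation with the one used was 0.86 over the 12 arrays. With the mean of both probe sets the difference was -0.67.

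Rictor, which encodes the subunit that defines mTORC2, had 6.83, 7.18 and 6.56 in knockout L-GMP, against 6.82, 7.06 and 6.77 in wild-type L-GMP. The wild-type arrays lay within the knockout range, at a difference of -0.03 (SE 0.24). In whole leukemia it had 6.74, 7.7 and 6.84 in the knockout, against 7.14, 6.88 and 6.99 in the wild type. Knockout array 2 was the highest and arrays 1 and 3 were the lowest of the 6, so the difference of 0.09 (SE 0.24) became -0.21 without array 2.

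Tsc1, which encodes the stabilising partner of TSC2, had 6.53, 6.13 and 6.43 in knockout L-GMP, against 6.43, 6.42 and 6.43 in wild-type L-GMP. The wild-type arrays were nearly level, with an SD of 0.0057, and sat inside the knockout range. In whole leukemia Tsc1 had 6.14, 7.03 and 6.35 in the knockout and 6.72, 6.3 and 6.31 in the wild type. The ranges overlapped, and the difference of 0.06 (SE 0.21) became -0.20 without knockout array 2, which held the highest value of all 12. Tsc2, encoding the GTPase-activating protein for Rheb, had 7.57, 7.33 and 7.48 in knockout L-GMP, against 7.04, 7.38 and 7.19 in wild-type L-GMP. Knockout arrays 1 and 3 were above all wild-type arrays and array 2 was not, at a difference of 0.26 (SE 0.16). In whole leukemia Tsc2 had 7.55, 6.88 and 7.34 in the knockout and 7.58, 7.41 and 7.61 in the wild type. The difference there was -0.28 (SE 0.16), -0.09 without knockout array 2 and -0.43 without knockout array 1.

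Rheb, the gene of the GTPase that activates mTORC1, had 7.6, 7.48 and 7.34 in knockout L-GMP, against 7.14, 7.68 and 7.59 in wild-type L-GMP. Its knockout arrays lay inside the wild-type range, with a difference of 0.00 (0.0019, 95% interval -0.40 to 0.40, folds of 0.758 to 1.32). In whole leukemia it had 7.37, 7.01 and 7.5 in the knockout, against 7.18, 7.63 and 7.29 in the wild type, again overlapping, at -0.07 (SE 0.18). That direction turned to 0.07 without knockout array 2, which held the lowest Rheb of all 12, and to 0.06 without wild-type array 2.

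Eif4ebp1, the gene of the translation repressor 4E-BP1, had 7.97, 8.1 and 8.45 in knockout L-GMP, against 7.69, 7.75 and 7.74 in wild-type L-GMP. All 3 knockout arrays lay above all 3 wild-type arrays, at a difference of 0.45 (SE 0.16, 95% interval 0.09 to 0.80, 1.36-fold), which did not pass (adjusted p = 0.9998 by limma, unadjusted p = 0.0181). Without knockout L-GMP array 3 it was 0.31. In whole leukemia Eif4ebp1 had 7.71, 7.88 and 8.32 in the knockout and 7.84, 7.81 and 7.82 in the wild type. Knockout array 1 was below and arrays 2 and 3 above every wild-type array, and the difference was 0.15 (SE 0.16, adjusted p = 0.913). It was 0.28 without knockout array 1, 0.19 without array 2 and -0.03 without array 3. The 6 wild-type arrays of both populations spanned 7.69 to 7.84 and the 6 knockout arrays 7.71 to 8.45. The SD was 0.25 in knockout, against 0.034 in wild-type, L-GMP, and 0.32 in knockout and 0.015 in wild-type whole leukemia, a difference in spread that was not tested and that limma's shared variance does not model.

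**Figure D2:**
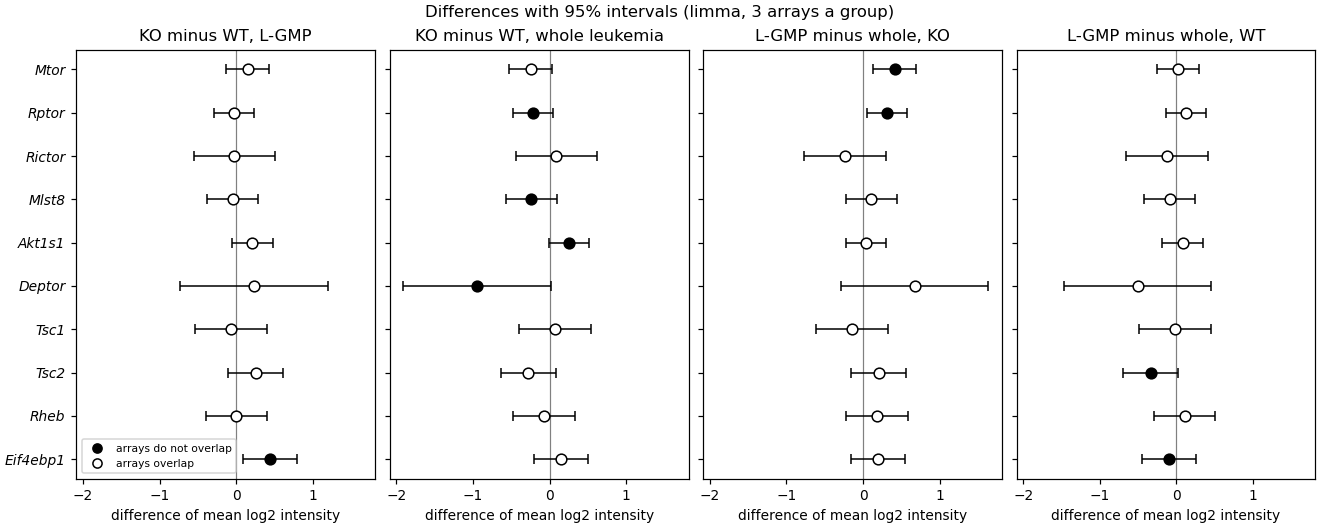
Differences of mean log2 intensity (x axis) with limma's 95% intervals for the 10 genes, for KO minus WT in L-GMP and in whole leukemia and for L-GMP minus whole leukemia in KO and in WT. Filled points mark genes whose 3 against 3 arrays did not overlap, and the widest intervals are those of Deptor.

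Averaged over both populations, Akt1s1 and Eif4ebp1 were the members with an unadjusted p under 0.05, 2 of 10 beside 7.72% of all genes. Akt1s1 differed by 0.23 (SE 0.08, adjusted p = 0.548 by limma) and Eif4ebp1 by 0.30 (SE 0.11, adjusted p = 0.573), each higher in the knockout. The probe set that names Akt1s1 with Mir707 had nearly equal genotype means in both populations, given above. Of the members 0 of 10 were called, where 0.0338% of all genes were. Separation of the genotypes in the same direction in both populations was met by 0 of 10 members and by 1.23% of all genes. Arrays of 1 genotype and number may come from the same recipient, so this average may count a recipient more than once.

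The comparison of L-GMP with whole leukemia asks how the leukemia-initiating fraction differs from the bulk. In the knockout, Mtor had values in L-GMP above those in whole leukemia on all arrays, 7.17 to 7.47 against 6.68 to 7.13, a difference of 0.41 (SE 0.13, 95% interval 0.14 to 0.69, 1.33-fold). Rptor was likewise separated, with 6.83 to 6.87 in knockout L-GMP and 6.35 to 6.63 in knockout whole leukemia, at 0.32 (SE 0.12, 95% interval 0.06 to 0.58, 1.25-fold). Neither passed (adjusted p = 0.671 for both by limma), and without knockout whole leukemia array 2 the differences were 0.31 and 0.23. These were the 2 of 10 members with an unadjusted p under 0.05, beside 7.39% of all genes, and the 2 of 10 whose arrays did not overlap, beside 10.2% of all genes. In this comparison 0 of 10 members were called, as was 0% of all genes. The remaining 8 members differed between the knockout populations by -0.24 for Rictor to 0.67 for Deptor. Without knockout whole leukemia array 2 these were 0.06 (0.065) for Rictor and 0.42 for Deptor. Deptor had 0.25 without knockout L-GMP array 2, -0.0022 without both number-2 arrays and 0.53 with the mean of its 2 probe sets.

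In the wild type, L-GMP and whole leukemia differed by -0.51 for Deptor to 0.13 for Rptor, and 0 of 10 members were called (adjusted p = 0.9999 for each by limma, 0% of all genes called). Both ends of that range were smaller without wild-type L-GMP array 1, at -0.09 for Deptor and 0.01 for Rptor. The other Deptor probe set had 6.31 in wild-type L-GMP and 6.33 in wild-type whole leukemia. With the mean of both probe sets the Deptor difference was -0.26. Mtor had 7.1 to 7.22 in wild-type L-GMP and 7.02 to 7.22 in wild-type whole leukemia, a difference of 0.02 (SE 0.13, folds of 0.836 to 1.23). Tsc2 and Eif4ebp1 were the 2 of 10 whose arrays did not overlap, beside 10.3% of all genes, and both were lower in L-GMP. Tsc2 had 7.04 to 7.38 in wild-type L-GMP and 7.41 to 7.61 in wild-type whole leukemia, at -0.33 (SE 0.16). For Eif4ebp1 the difference was -0.10 (SE 0.16), within the tight wild-type range given above. Members with an unadjusted p under 0.05 numbered 0 of 10, beside 2.5% of all genes. The arrays were fitted unpaired, although equal replicate numbers deviated alike in the wild type. With genotype and number as a random block, 1 of 10 had an unadjusted p under 0.05. Averaged over both genotypes, L-GMP exceeded whole leukemia by 0.22 for Mtor (SE 0.09) and 0.22 for Rptor (SE 0.08), 2 of 10 with an unadjusted p under 0.05 beside 7.52% of all genes, and 0 of 10 members and 0% of all genes were called (lowest adjusted p of a member = 0.661). Separation of L-GMP from whole leukemia in the same direction in both genotypes was met by 0 of 10 members and by 0.828% of all genes.

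The interaction asks whether the genotype difference in L-GMP departs from that in whole leukemia. It was 0.54 for Tsc2 (SE 0.23, 95% interval 0.03 to 1.05), 0.39 for Mtor (SE 0.18, 95% interval 0.00 to 0.79) and 1.18 for Deptor (SE 0.61, 95% interval -0.18 to 2.54). For all 3, the knockout minus wild-type difference was above 0 in L-GMP and below 0 in whole leukemia, although for Deptor the L-GMP sign turned under the alternatives given above. None of the 10 was called (0 of 10 against 0% of all genes, adjusted p = 1.0 for each by limma), and 2 of 10, Tsc2 and Mtor, had an unadjusted p under 0.05 beside 2.06% of all genes. For Mtor that p was 0.0497 by limma. The count of 2 was not steady. It fell to 0 under median centring, with trended and robust variance, and without knockout whole leukemia array 2. Dropping array 1 or 3 of either wild-type population also gave 0, as did dropping array 1 of knockout L-GMP. A count of 1 came from dropping array 2 of wild-type L-GMP, and from dropping number 2 or 3 of knockout L-GMP. The count stayed at 2 under quantile normalization and array weights, and without array 2 of wild-type or array 1 of knockout whole leukemia. It was 3 without knockout whole leukemia array 3. Without knockout whole leukemia array 2 the interaction was 0.35 for Tsc2, 0.29 for Mtor and 0.93 for Deptor. Without both number-2 knockout arrays these values were 0.42, 0.31 and 0.51, and with array weights Deptor had 0.37. Deptor had 0.76 without knockout L-GMP array 2, and 0.76 without wild-type L-GMP array 1.

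The order of the group means differed from gene to gene. Mtor was highest in knockout L-GMP (7.3) and lowest in knockout whole leukemia (6.89), with wild-type L-GMP (7.16) and wild-type whole leukemia (7.14) between them and within their spread of each other. Rptor had 6.84 in knockout, against 6.87 in wild-type, L-GMP, above 6.52 in knockout and 6.74 in wild-type whole leukemia. Deptor was lowest in knockout whole leukemia (5.85 ± 0.51) and highest in wild-type whole leukemia (6.8 ± 0.32), with 6.52 ± 0.73 in knockout, against 6.29 ± 0.73 in wild-type, L-GMP (SD, n = 3). Across the 4 group means Rheb spanned 0.18 and Tsc1 0.15, both less than the largest SD within a group (0.29 for Rheb and 0.47 for Tsc1).

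Over the 12 arrays the members did not vary as one block. Of the 45 pairs, the highest correlations were those of Mtor with Tsc2 (r = 0.65), Mtor with Rptor (0.65), Rictor with Tsc1 (0.63) and Akt1s1 with Eif4ebp1 (0.62). The lowest were those of Rptor with Rictor (-0.62) and Tsc1 with Rheb (-0.56). Without knockout whole leukemia array 2 these were 0.36, 0.35, 0.05, 0.65, -0.17 and -0.23, in the same order, and of these 6 pairs only that of Akt1s1 and Eif4ebp1 was as strong without it. After the group means were subtracted, Mtor correlated with Tsc2 at 0.85 and with Rptor at 0.27, Rictor with Tsc1 at 0.61, Akt1s1 with Eif4ebp1 at 0.39, Rptor with Rictor at -0.61 and Tsc1 with Rheb at -0.54. The values after subtraction include knockout whole leukemia array 2, which was far above its group in both Rictor and Tsc1, and were not computed without it. All of the correlations are descriptions over arrays that share groups and, possibly, recipients.

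In knockout whole leukemia array 2 the members departed from the mean of its group's other arrays by a median of 0.37, the most of the 12 arrays, against 0.21 over all genes on that array. Rictor was 0.91 above the others there. Over the 12 arrays, Rictor (r = 0.78) and Tsc1 (0.69) ran with the erythroid mean, and Mtor (-0.74), Rptor (-0.70) and Tsc2 (-0.68) ran against it. Without that array the values were 0.01, -0.35, -0.40, -0.23 and -0.21. The correlation was stronger without it for Eif4ebp1 (0.11 to 0.70), Mlst8 (-0.16 to -0.69) and Akt1s1 (0.30 to 0.54). For Deptor it went from -0.47 to 0.14 and for Rheb from -0.54 to 0.08. The part of erythroid cells in the member values was not tested. Mtor and Rptor also ran with the mean of the 4 sorting gate genes, at 0.74 and 0.83, and at 0.61 and 0.75 without that array. That mean spanned 8.46 to 8.81 in knockout L-GMP, 8.25 to 8.67 in wild-type L-GMP, 7.31 to 7.57 in knockout whole leukemia and 8.06 to 8.18 in wild-type whole leukemia, and its part in the Mtor and Rptor differences was not tested. The erythroid means spanned 5.63 to 6.15 in knockout L-GMP, 5.48 to 5.62 in wild-type L-GMP, 5.67 to 9.52 in knockout whole leukemia and 5.43 to 5.56 in wild-type whole leukemia. The neutrophil means, over 12 of 12 genes, spanned 7.37 to 8.35, 6.79 to 8.83, 9.0 to 11.59 and 7.9 to 10.3 in these groups. Of 10 monocyte genes, 10 were lower in knockout L-GMP (median -0.76) and 10 in knockout whole leukemia (median -1.12), with 0 called. Their means spanned 7.42 to 7.89, 7.75 to 8.92, 7.28 to 8.08 and 8.58 to 9.11 in the 4 groups. Over the 12 arrays Akt1s1 ran against the monocyte mean (r = -0.59) and Deptor with it (0.58), at -0.58 and 0.47 without knockout whole leukemia array 2. Other marker means gave values of similar size. Rptor (-0.66) and Mtor (-0.61) ran against the neutrophil mean, at -0.40 and -0.31 without that array. With the mean of 5 of 6 T and NK cell genes, Tsc1 had 0.66 and Rheb -0.58, at 0.67 and -0.51 without it. The part of these cells in the member values was not tested. In a sorted bulk sample, fewer cells of a type and less RNA per cell cannot be told apart.

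**Figure D3:**
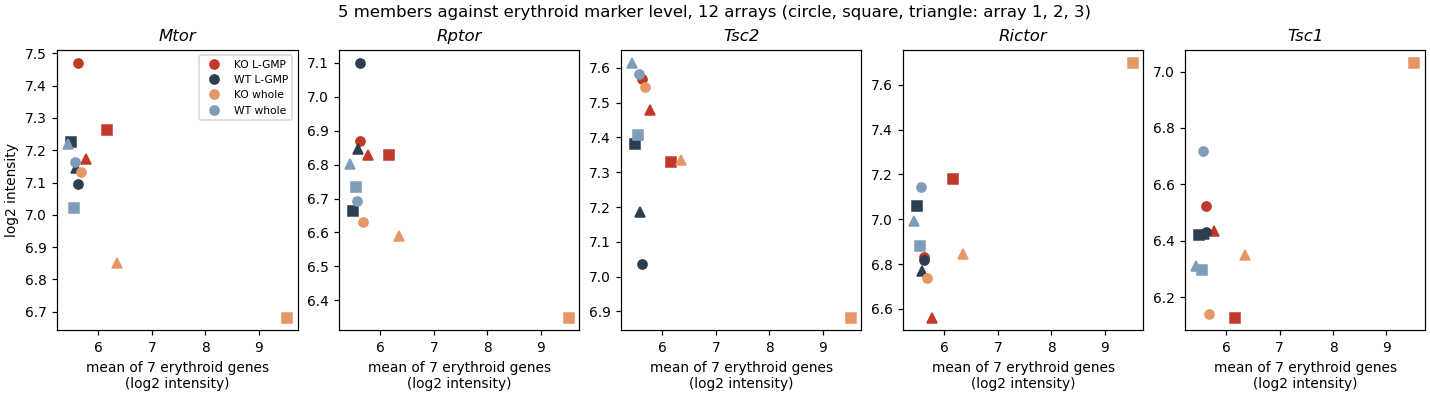
Log2 intensity (y axis) of Mtor, Rptor, Tsc2, Rictor and Tsc1 against the mean log2 intensity of 7 erythroid marker genes (x axis), with 1 point per array coloured by group. KO whole leukemia array 2 lies alone at 9.52 on the x axis, while the other 11 arrays lie between 5.43 and 6.35.

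The genes whose pattern over the 12 arrays was most like that of Deptor, the member with the widest range of group means (0.95), were Msantd4 (r = 0.94), the aldo-keto reductase gene Akr1a1 (0.92) and Igbp1 (0.92), out of 17748 compared. For Eif4ebp1, the next widest (0.45), they were Ptov1 (r = 0.92), Cfap53 (0.90) and the LIM-domain-binding gene Ldb1 (0.90). These are the highest of many values over 12 arrays and are given as a description.

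The wider pathway was described by 6 lists of 99 genes in all, of which 91 had a single-symbol probe set and 88 were tested. None was called in any of the 7 comparisons, 0 higher and 0 lower in each. The lowest adjusted p of a listed gene was 0.814 between the L-GMP genotypes and 0.827 between those of whole leukemia. At an unadjusted p under 0.05 there were 3 of 88 in L-GMP (3.41%) and 4 of 88 in whole leukemia (4.55%), beside 4.13% and 5.97% of all genes.

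Among the amino acid sensing genes (Rag GTPases, Ragulator, GATOR, KICSTOR, sestrins and folliculin, 27 of 29 tested), 14 were higher and 13 lower in knockout L-GMP. Their median was 0.019, against 0.017 over all genes. In whole leukemia 12 were higher and 15 lower, at a median of -0.07. Lamtor3, which encodes a Ragulator subunit that holds Rag GTPases on the lysosome, had 8.08, 7.73 and 8.4 in knockout L-GMP, against 8.59, 8.62 and 8.34 in wild-type L-GMP. These overlapped, but in whole leukemia 7.94, 8.09 and 8.36 in the knockout all lay below 8.59, 8.67 and 8.42 in the wild type. Its differences of -0.45 (SE 0.17) and -0.43 (SE 0.17) did not pass (adjusted p = 0.9998 and 0.827 by limma), nor did their mean of -0.44 (SE 0.12, adjusted p = 0.416).

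Of the growth factor and stress inputs to TSC (18 of 21 tested), 6 were higher and 12 lower in knockout L-GMP, and 8 higher and 10 lower in knockout whole leukemia. Akt2, one of the kinases that inactivates TSC2, differed by 0.27 (SE 0.12) in L-GMP, and the PI3-kinase genes Pik3ca and Pik3r1 by -0.35 and -0.33 (SE 0.14 each) in whole leukemia. None of these passed. The mTORC2 partners, substrates and assembly factors (11 of 11 tested) had 9 higher and 2 lower in knockout L-GMP (median 0.08) and 2 higher and 9 lower in knockout whole leukemia (median -0.15). The interaction was above 0 for 11 of 11 of them, beside 54.8% of all genes, with 0 of 11 at an unadjusted p under 0.05. The 11 values share the same arrays, and without knockout whole leukemia array 2 it was above 0 for 9 of 11 (median 0.13, against 0.21 with it). This list had the highest such share of the 6. The interaction was above 0 for 15 of 27 amino acid sensing genes, 12 of 18 growth factor and stress inputs and 8 of 10 translation targets. For autophagy and other targets it was 4 of 11, and for ATF4 and one-carbon genes 6 of 11. Over the 6 lists, 0 of 88 had an unadjusted p under 0.05 for it. Sgk3, a kinase related to the mTORC2 substrate SGK1, had differences of -0.41 (SE 0.24) in L-GMP and -0.54 (SE 0.24) in whole leukemia and did not pass.

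Of the translation targets (10 of 14 tested), 7 were higher and 3 lower in knockout L-GMP (median 0.10), and 4 higher and 6 lower in knockout whole leukemia (median -0.05). Eef2k, whose product inhibits elongation factor 2 and is itself restrained downstream of mTORC1, had 7.15, 7.46 and 7.24 in knockout L-GMP, against 6.93, 6.8 and 6.72 in wild-type L-GMP. All knockout arrays were higher, and the difference of 0.47 (SE 0.11, 1.38-fold) did not pass (adjusted p = 0.814 by limma). In whole leukemia Eef2k differed by 0.18 (SE 0.11), with overlapping arrays. Autophagy and other targets (11 of 12 tested) had 4 higher and 7 lower in knockout L-GMP, and 7 higher and 4 lower in knockout whole leukemia. Srebf2, the regulator of cholesterol synthesis genes, differed by 0.36 (SE 0.18) in L-GMP and 0.35 (SE 0.18) in whole leukemia. The ATF4 and one-carbon genes (11 of 12 tested) had 6 higher and 5 lower in knockout L-GMP and 7 higher and 4 lower in knockout whole leukemia, at medians of 0.09 and 0.18. Phgdh, which opens serine synthesis, had a difference of 0.67 (SE 0.48) in L-GMP, where knockout array 2 had 8.18 and the other knockout arrays 6.38 and 6.19, and the asparagine synthetase gene Asns one of 0.66 (SE 0.36) in whole leukemia, neither called.

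**Figure D4:**
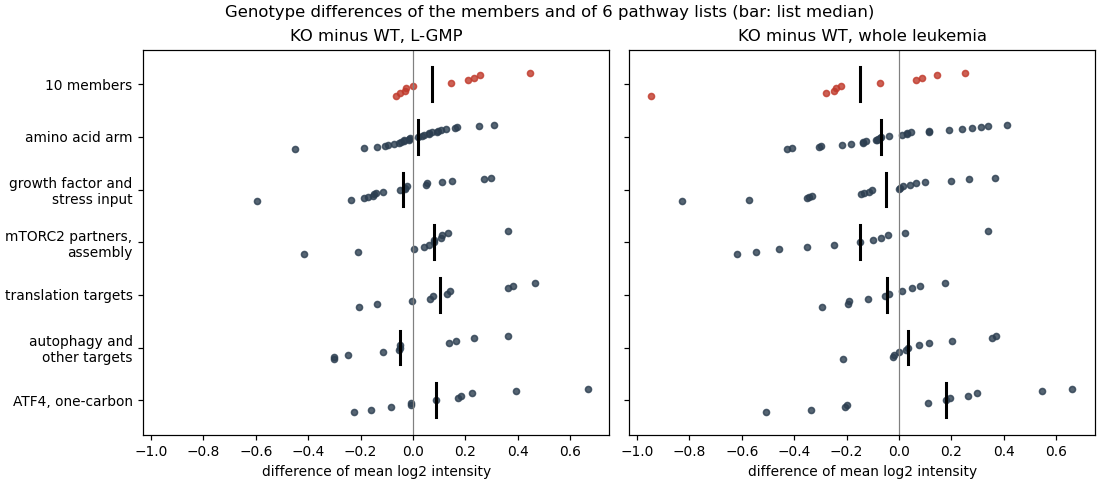
Differences of mean log2 intensity between knockout and wild type (x axis) in L-GMP and in whole leukemia, with 1 point per tested gene for the 10 members (red) and the 6 pathway lists, and a bar at each median. The medians lie between -0.15 and 0.18, and no gene shown was called.

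Between the knockout populations 10 of the 88 listed genes had an unadjusted p under 0.05 (11.4%), beside 7.39% of all genes, and between the wild-type populations 1 of 88 (1.14%), beside 2.5%. In knockout L-GMP against knockout whole leukemia, Eef2k differed by 0.42 (SE 0.11), the initiation factor gene Eif4b by 0.66 (SE 0.24), the mTOR assembly factor gene Telo2 by 0.40 (SE 0.14), and Itfg2 of the KICSTOR complex by 0.65 (SE 0.19). The autophagy initiation gene Rb1cc1 had -0.72 (SE 0.26) and the stress-induced sestrin gene Sesn2 had -0.50 (SE 0.22). Each of these had an adjusted p of 0.671 or 0.674 by limma and did not pass. Pik3r5, among the growth factor and stress inputs to TSC, was the 1 of 88 between the wild-type populations. Its L-GMP minus whole leukemia difference there was -0.81 (SE 0.29, adjusted p = 0.9999 by limma). Between the knockout populations Pik3r5 had -0.73 (SE 0.29, adjusted p = 0.671). The mean over genotypes was -0.77 (SE 0.20, adjusted p = 0.655), and Pik3r5 passed in none of these comparisons.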

How the data were processed

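RNA of 12 samples, 3 in each of 4 groups, was amplified and biotin-labelled with NuGEN kits, per the labels' protocols, and hybridised to 1-colour arrays. The deposited values are linear intensity values for 33794 probe sets (18.0 to 9108, array medians 36.9 to 39.3), and what corrected, scaled or summarised them is not stated in the labels. They were taken to log2 with no offset. Each gene took the brightest probe set that names it alone, and genes averaging under 4.72 (the lowest 25% of probe sets) were dropped, leaving 17749. The members were listed by symbol, and they, the pathway lists and the alternatives were chosen with earlier results of these data known.

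Groups were compared with limma 3.58.1 (R 4.3.3, statmod 1.5.0), fitting all 12 arrays by lmFit and then eBayes, 1 mean per group, and 8 residual and 2.36 prior degrees of freedom. The 7 comparisons were the genotype difference in each population and their mean, the population difference in each genotype and their mean, and the interaction. Named genes were the 10 members, Prkaa1 and listed genes of lowest p. The fit was tested on simulated data. Alternatives covered the normalization, offset, filter, probe sets, variance model, array weights, samples fitted, replicate blocks and left-out arrays. The number of arrays limits the precision. Deviations from group means in wild-type L-GMP and wild-type whole leukemia correlated at 0.36, 0.62 and 0.30 for equal replicate numbers. Unequal numbers gave -0.37 to 0.03 there. Between knockout populations equal numbers gave 0.13, 0.09 and 0.43, overlapping the -0.38 to 0.19 of unequal numbers. Between genotypes they also overlapped (-0.10 to 0.19 for equal, -0.19 to 0.15 for unequal numbers). The main comparisons used no pairing in either genotype.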

Additional observations from a re-analysis of the deposited data

How the results depend on the processing

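Over 1650 recomputed differences of the 10 genes, 116 changed sign, 0 of them where the main unadjusted p was under 0.05, and 36 of 70 differences kept their sign throughout. That 0 does not measure stability, since those differences were picked by their p on the same arrays. Between the L-GMP genotypes, 0 members had an unadjusted p under 0.05 without knockout L-GMP array 3. The number of members called was 0 in all 165 recomputed counts. The lowest adjusted p was 0.0971, for Mtor between the knockout populations without knockout whole leukemia array 1. Causes were not tested. With the replicate number as a block, or genotype and number as a random block (correlation 0.15), 0 members were called in each comparison.

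For knockout minus wild type in L-GMP, array weights gave -0.30 for Deptor, -0.020 for Rheb, 0.021 for Rptor and 0.020 for Tsc1, and without both number-2 knockout arrays (added after seeing the data) Deptor had -0.19, Rheb -0.0035 and Tsc1 0.053. Rheb had -0.011 under median centring and -0.0026 under quantile normalization. Leaving out each array gave -0.19 to 0.48 for Deptor, -0.17 to 0.043 for Mlst8, -0.16 to 0.11 for Rheb, -0.19 to 0.12 for Rictor, -0.13 to 0.087 for Rptor and -0.15 to 0.053 for Tsc1. In whole leukemia, array weights gave 0.027 for Rheb, -0.069 for Rictor and -0.037 for Tsc1, and without both number-2 knockout arrays these were 0.069, -0.21 and -0.20. Leaving out each array gave -0.032 to 0.28 for Eif4ebp1, -0.18 to 0.069 for Rheb, -0.21 to 0.27 for Rictor and -0.20 to 0.25 for Tsc1.

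For L-GMP minus whole leukemia in the knockout, array weights gave -0.065 for Akt1s1, -0.064 for Eif4ebp1 and 0.059 for Tsc1, and without both number-2 arrays Deptor had -0.0022 and Tsc1 0.23. Leaving out each array gave -0.054 to 0.15 for Akt1s1, -0.0097 to 0.20 for Mlst8, -0.41 to 0.065 for Rictor and -0.33 to 0.12 for Tsc1. In the wild type, Tsc1 had 0.0024 under median centring and 0.0024 under array weights. Leaving out each array gave -0.15 to 0.035 for Mlst8, -0.037 to 0.063 for Mtor, -0.00030 to 0.27 for Rheb and -0.089 to 0.12 for Tsc1.

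Counts over all genes were less steady. The genotype difference averaged over populations called 6 genes, 51 with array weights and 1 to 15 with an array left out. Between the knockout populations 0 genes were called, and 40 without knockout whole leukemia array 1.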
